A study of Mus musculus with 12 samples.

Results

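Glucocorticoids, chiefly corticosterone in mice, act through the glucocorticoid receptor, a nuclear receptor held in the cytoplasm by a chaperone complex until it binds the hormone, moves to the nucleus and changes transcription of its target genes. The related mineralocorticoid receptor binds the same hormone, and in each cell the enzymes of the 11-beta-hydroxysteroid dehydrogenase pair set how much active hormone is left. In the lung the receptor is known for its part in maturation before birth. The data here follow 10 genes of this system, taken by their symbols: the receptors *Nr3c1* and *Nr3c2*, the enzymes *Hsd11b1* and *Hsd11b2*, and the glucocorticoid-responsive genes *Fkbp5*, *Tsc22d3*, *Zbtb16*, *Klf9*, *Dusp1* and *Sult1a1*. All 10 were among the 16152 genes of the deposited count table and among the 51825 of the CPM table (counts scaled to library size), and all 10 were among the 15994 genes tested, those that reached 1 CPM in 3 or more libraries.

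RNA was sequenced from whole lungs of untreated wild-type C57BL/6 mice of both sexes at 2 embryonic time-points, E15.5 and E18.5, and 2 postnatal ones, P5 and P8, with 3 replicates each. Hormone was neither given nor measured, and the hour of collection is not given in the sources used here. The 3 lungs of each time-point were litter mates, so litter and time-point cannot be told apart and edgeR p-values measure the spread within litters. Since these are bulk samples, a change in the cells that make a transcript and a change in transcript per cell cannot be told apart. The libraries held 41337443 to 53901957 counted reads. All 5 lung markers (*Nkx2-1*, *Sftpc*, *Sftpb*, *Foxf1* and *Tbx4*) were detected in every library, with a summed level of 1100 to 2610 CPM before birth and 12200 to 16200 CPM after it. Some libraries also carried transcripts of neighbouring tissues. The 13 thymus and T cell markers summed to 400 and 709 CPM in P8 replicates 1 and 2, to 159 CPM in E15.5 replicate 2 and to 96.1 to 115 CPM in the other libraries, where most of the sum was *Tcf7*, and *Rag1*, which defines developing lymphocytes, was at 77.8, 156 and 12 CPM in those 3 libraries against at most 4.19 CPM elsewhere. The 8 heart markers summed to 1160 and 1450 CPM in E15.5 replicates 1 and 2 and to 61.5 CPM in replicate 3, and to 58.9 to 412 CPM at the later time-points. The 6 adipose markers summed to 370 and 741 CPM in P8 replicates 1 and 2 and to at most 135 CPM elsewhere, and the 10 liver markers to 129 CPM in P8 replicate 2 and at most 45.4 CPM elsewhere.

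Most of the 10 genes were higher after birth, and *Fkbp5* alone among them was lower. Here a gene is said to rise or fall when its edgeR quasi-likelihood FDR, adjusted over all 15994 genes, was under 0.05, and to pass both cutoffs when the log2 fold change also exceeded 1 in size. From E15.5 to E18.5, 5 of the 10 rose and 0 fell, where 11.6% of all genes tested rose and 9.87% fell, and 2 passed both cutoffs upwards and 0 downwards, against 1.59% and 1.46% of all genes. Across birth, from E18.5 to P5, 7 rose and 1 fell (all genes: 35.4% and 35.7%), and 5 passed both cutoffs upwards and 1 downwards (all genes: 17.5% and 9.34%). From P5 to P8, 1 rose and 1 fell (all genes: 9.75% and 8.21%), and 1 passed both cutoffs upwards and 0 downwards (all genes: 2.88% and 0.0875%). Over the whole span from E15.5 to P8, 9 rose and 1 fell (all genes: 37.6% and 38.7%), and 6 passed both cutoffs upwards and 0 downwards (all genes: 20.9% and 11.5%). The median log2 fold change of the 10 was 0.52, 1.12, -0.03 and 1.27 in these comparisons in turn, and that of all genes tested lay between -0.024 and -0.001. The 4 comparisons share libraries, so their counts are not independent of each other.

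**Figure D1:**
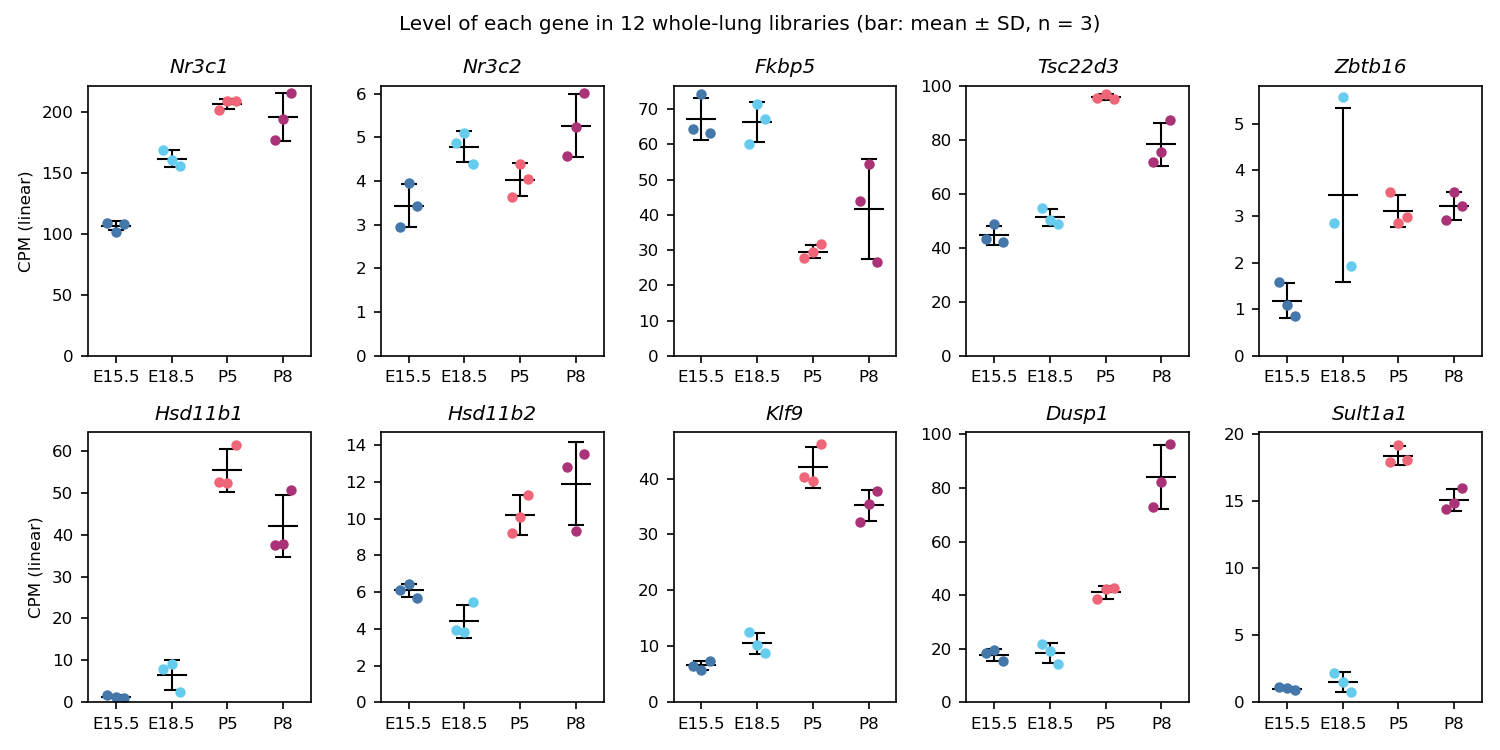
Level of each of the 10 genes in CPM on a linear axis from 0, against the time-point, with 1 point per library, the mean as a bar and the SD as whiskers (n = 3). In the *Fkbp5* panel the P8 points lie below all E15.5 points and spread from 26.7 to 54.5 CPM. In the other panels the P8 points lie above all E15.5 points. The share of all genes tested with such a separation was not computed.

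The receptor gene *Nr3c1* was the most abundant of the 10 and rose in steps before and across birth. Its level was 109, 102 and 108 CPM at E15.5, 169, 161 and 156 CPM at E18.5, then 202, 209 and 209 CPM at P5, and 177, 195 and 216 CPM at P8. The first 3 time-points did not overlap, and P5 and P8 did. It rose 1.52-fold from E15.5 to E18.5 (log2 fold change 0.61, SE 0.064, edgeR FDR = 0.00037) and 1.35-fold from E18.5 to P5 (log2 fold change 0.44, SE 0.064, edgeR FDR = 5e-05), each short of the fold cutoff. From P5 to P8 its log2 fold change was -0.09 (edgeR FDR = 0.32).

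*Nr3c2*, which encodes the mineralocorticoid receptor, was low throughout, with 2.95, 3.95 and 3.42 CPM at E15.5, 4.86, 5.09 and 4.39 CPM at E18.5, then 3.64, 4.4 and 4.04 CPM at P5 and 4.58, 5.23 and 6.02 CPM at P8. E18.5 and P5 overlapped slightly, and P8 lay above P5. Over the whole span it rose 1.61-fold (log2 fold change 0.69, SE 0.16, edgeR FDR = 0.0016). Its first interval was at the edge of the test (log2 fold change 0.48, SE 0.16, edgeR FDR = 0.048) and missed it under most other settings, as given in the closing section.

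The ratio of the 2 receptor transcripts within a library needs no scaling between libraries. The log2 ratio of *Nr3c1* to *Nr3c2* counts averaged 4.96 ± 0.26 in the E15.5 libraries, 5.08 ± 0.09 in those of E18.5, 5.68 ± 0.11 in those of P5 and 5.22 ± 0.05 in those of P8 (SD, n = 3). The 6 postnatal libraries were higher than the 6 embryonic ones by 0.43 (exact permutation test, two-sided, p = 0.0043). The test shuffled single libraries, although those of a time-point were litter mates and each side joined different time-points. Its p-value therefore takes no account of the spread between litters. The highest ratios were those of P5, and P8 replicate 3 at 5.17 and P8 replicate 2 at 5.22 lay next to E15.5 replicate 1 at 5.21, so the embryonic and postnatal groups overlapped. Per kilobase of annotated exon, *Nr3c1* reads were 26.6 ± 4.71 times those of *Nr3c2* in E15.5 lungs and 28.6 ± 1.74 times in E18.5 lungs, then 43.4 ± 3.35 times in P5 lungs and 31.4 ± 1.12 times in P8 lungs.

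Of the enzyme genes, *Hsd11b1* encodes the enzyme that turns the inactive keto form into active hormone, and it showed the largest change of the 10 from E15.5 to P8. Its level was 1.87, 1.2 and 1.12 CPM at E15.5, 7.9, 9.21 and 2.6 CPM at E18.5, then 52.5, 52.3 and 61.3 CPM at P5, and 37.6, 37.7 and 50.6 CPM at P8. No embryonic library came near a postnatal one, and at E18.5 replicate 3 was apart from the other 2. The rise was 4.66-fold from E15.5 to E18.5 (log2 fold change 2.22, SE 0.38, edgeR FDR = 0.0029), 8.95-fold from E18.5 to P5 (log2 fold change 3.16, SE 0.34, edgeR FDR = 3.5e-06) and 31.23-fold over the whole span (log2 fold change 4.96, SE 0.39, edgeR FDR = 1.5e-07). P8 lay below P5 in every library, yet with a log2 fold change of -0.42 (edgeR FDR = 0.36, and 0.044 when only the 6 libraries of the comparison were fitted). The gene lies on chromosome 1 of GRCm38 (mm10), from 193221634 to 193264075 on the minus strand, where it overlaps *Lamb3* on the other strand (median 77.9 CPM), and the strand setting of the counting is not given in the sources used here.

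*Hsd11b2*, whose product inactivates the hormone and so shields the mineralocorticoid receptor, rose across birth like *Hsd11b1*. It stood at 6.13, 6.45 and 5.7 CPM at E15.5, 3.94, 3.85 and 5.44 CPM at E18.5, then 9.22, 10.1 and 11.3 CPM at P5 and 12.8, 9.33 and 13.5 CPM at P8. Every E18.5 library was under every E15.5 one, with a log2 fold change that missed the test (-0.46, SE 0.17, edgeR FDR = 0.074) but passed it without E18.5 replicate 3 (FDR = 0.0256) or without P8 replicate 2 (FDR = 0.0408). From E18.5 to P5 it rose 2.46-fold (log2 fold change 1.3, SE 0.17, edgeR FDR = 2.3e-05), with no overlap.

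Read against each other in the same library, the enzymes changed order. *Hsd11b1* reads were 0.305, 0.186 and 0.197 times those of *Hsd11b2* at E15.5 and 2.01, 2.39 and 0.478 times at E18.5, then 5.69, 5.18 and 5.4 times in P5 lungs and 2.93, 4.04 and 3.74 times in P8 lungs. Every E15.5 library had fewer *Hsd11b1* than *Hsd11b2* reads and every postnatal library had more, while E18.5 was split, with replicate 3 on the E15.5 side. The mean log2 ratio was 3.01 higher in the 6 postnatal than in the 6 embryonic libraries (exact permutation test, two-sided, p = 0.0022, the smallest that 924 arrangements can give). As for the receptor ratio, this p-value takes no account of the spread between litters. Per kilobase of exon the ratio averaged 0.0992 ± 0.0286 in E15.5 and 0.704 ± 0.438 in E18.5 lungs, against 2.35 ± 0.112 in P5 and 1.55 ± 0.25 in P8 lungs (SD, n = 3). At E18.5 the per-kilobase values were 0.868, 1.04 and 0.207 in replicate order, so by this measure replicate 1 also lay below 1. E18.5 replicate 3 also had the lowest summed level of the 8 alveolar type 2 markers of its time-point, 1270 CPM against 1620 and 2190 CPM, and its part in these values was not tested.

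**Figure D2:**
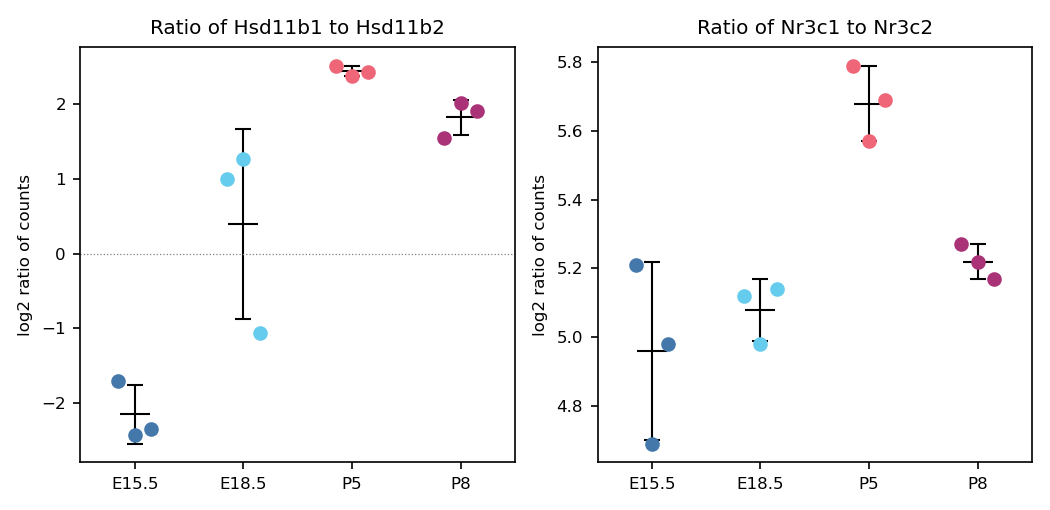
Log2 ratio of counts within each library, for *Hsd11b1* over *Hsd11b2* on the left and *Nr3c1* over *Nr3c2* on the right, against the time-point, with 1 point per library, the mean as a bar and the SD as whiskers (n = 3). On the left the points climb from between -2.42 and -1.71 at E15.5 to between 2.37 and 2.51 at P5, with 1 of the 3 E18.5 points below 0, and on the right the range is narrow, 4.69 to 5.79.

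*Fkbp5*, a co-chaperone that lowers the affinity of the receptor for hormone and a widely used readout of receptor activity, was the one gene of the 10 to fall across birth. Its level was 64.4, 74.2 and 63.2 CPM at E15.5, 60.1, 71.5 and 67.2 CPM at E18.5, then 27.8, 29.4 and 31.7 CPM at P5, and 44, 54.5 and 26.7 CPM at P8. The embryonic time-points overlapped, P5 lay below both, and P8 was divided, with replicate 3 under all P5 libraries and replicates 1 and 2 above them. The fall from E18.5 to P5 was 2.11-fold (log2 fold change -1.08, SE 0.19, edgeR FDR = 0.00025). From P5 to P8 its log2 fold change was 0.48 (edgeR FDR = 0.097).

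The 2 P8 libraries with more *Fkbp5* were the 2 with the most thymus transcripts, as the plot of *Fkbp5* against the thymus markers shows, and at E15.5 the library with the most of these, replicate 2, had the most *Fkbp5* as well. These P8 libraries also had the most adipose transcripts. Leaving out these 3 libraries, a setting chosen after seeing the data, keeps P8 replicate 3 alone at its time-point. The log2 fold change of *Fkbp5* from P5 to P8 was then -0.17. From E15.5 to P8 it was -1.18 in place of -0.61 (edgeR FDR = 0.0099 with all libraries). Without P8 replicate 3, in contrast, the change from P5 to P8 was called (log2 fold change 0.71, edgeR FDR = 0.000598), and DESeq2 on all libraries called it as well (log2 fold change 0.49, FDR = 0.029). None of the 3 libraries left out is in the comparison across birth, where 7 of the 12 tested thymus and T cell markers rose and 0 fell (median log2 fold change 3.76), while their summed level went from 96.1 to 111 CPM in E18.5 lungs to 99.1 to 115 CPM in P5 lungs. The part of these transcripts in the *Fkbp5* values was not tested.

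**Figure D3:**
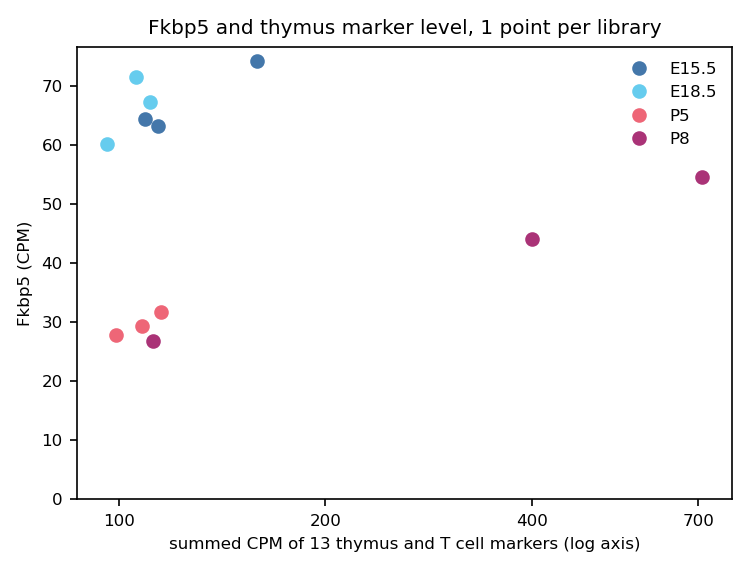
*Fkbp5* in CPM, on a linear axis from 0, against the summed CPM of 13 thymus and T cell markers on a log axis, with 1 point per library coloured by time-point. Of the P8 libraries, the one at 112 CPM of markers has 26.7 CPM of *Fkbp5*, next to the P5 points, and those at 400 and 709 CPM have 44 and 54.5 CPM.

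*Tsc22d3* encodes GILZ, a leucine zipper protein that carries anti-inflammatory effects of glucocorticoids. It went opposite to *Fkbp5*, at 43.4, 48.8 and 42.1 CPM at E15.5, 54.9, 50.4 and 48.8 CPM at E18.5, then 95.5, 97.3 and 95.4 CPM at P5 and 72.1, 75.8 and 87.6 CPM at P8. The P5 libraries were the highest and lay within 1.02 times of each other. From E18.5 to P5 it rose 1.99-fold (log2 fold change 0.99, SE 0.079, edgeR FDR = 2.6e-07), at the very edge of the fold cutoff. It then fell 1.24-fold to P8 (log2 fold change -0.31, SE 0.078, edgeR FDR = 0.02). That call was lost without P8 replicate 1 or 2 or any 1 of the P5 replicates, where the FDR lay between 0.05049 and 0.07988. Without the 3 libraries with thymus transcripts, which leaves P8 replicate 3 alone at its time-point, the log2 fold change was -0.16.

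*Zbtb16*, a zinc finger transcription factor, rose before birth and passed no test in the later intervals. It was at 1.6, 1.1 and 0.865 CPM at E15.5, 2.87, 5.57 and 1.94 CPM at E18.5, then 3.52, 2.87 and 2.98 CPM at P5, and 2.93, 3.53 and 3.22 CPM at P8. E18.5 was the most uneven, with replicate 2 at 2.87 times replicate 3, although all 3 exceeded E15.5. It rose 2.92-fold from E15.5 to E18.5 (log2 fold change 1.54, SE 0.35, edgeR FDR = 0.0098), and the later intervals had log2 fold changes of -0.06 (edgeR FDR = 0.88) and 0.03 (edgeR FDR = 0.97).

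*Zbtb16* and *Hsd11b1* were the 2 genes past both cutoffs from E15.5 to E18.5. With E15.5 replicates 1 and 2, which carried heart transcripts, left out together, a setting chosen after seeing the data that leaves 1 library at E15.5, 0 of the 10 passed both cutoffs in that interval. The spread then comes from the other time-points, the lone library is taken to vary as they do, and a lost call may reflect the lost replicates alone. *Zbtb16* then had a log2 fold change of 1.99 (edgeR FDR = 0.063) and *Hsd11b1* of 2.54 (edgeR FDR = 0.052), both larger than with all libraries.

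*Klf9* encodes a Krüppel-like transcription factor that answers to both glucocorticoid and thyroid hormone. Its level was 6.55, 5.84 and 7.45 CPM at E15.5, 12.6, 10.3 and 8.84 CPM at E18.5, then 40.3, 39.6 and 46.2 CPM at P5, and 32.3, 35.4 and 37.8 CPM at P8. No 2 time-points overlapped. It rose 1.6-fold before birth (log2 fold change 0.68, SE 0.13, edgeR FDR = 0.0047, but 0.50 and edgeR FDR = 0.14 without E15.5 replicates 1 and 2) and 4.22-fold across it (log2 fold change 2.08, SE 0.13, edgeR FDR = 3.7e-08), and P8 was under P5 with a log2 fold change of -0.27 (edgeR FDR = 0.14, and 0.038 when only the 6 P5 and P8 libraries were fitted).

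*Dusp1* encodes a phosphatase that switches off MAP kinases, and it was the one gene of the 10 to rise after birth as well as across it. It ranged from 15.3 to 19.4 CPM at E15.5 and was at 21.7, 19.2 and 14.4 CPM at E18.5, then 38.4, 42.2 and 42.7 CPM at P5 and 72.9, 82.4 and 96.6 CPM at P8. The embryonic time-points overlapped, and each later one lay wholly above the one before. From E18.5 to P5 the rise was 2.36-fold (log2 fold change 1.24, SE 0.14, edgeR FDR = 5.8e-06) and from P5 to P8 2.02-fold (log2 fold change 1.01, SE 0.14, edgeR FDR = 0.0014). The latter sat on the fold cutoff and fell below it without P5 replicate 1 (0.98) or without P8 replicate 3 (0.89), with FDR still under 0.05. Its annotated span on chromosome 17, from 26505590 to 26562128, overlaps *Ergic1* on the other strand (median 142 CPM).

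*Sult1a1*, a sulfotransferase for phenols and a known glucocorticoid-induced gene, had the steepest step across birth. Its level was 1.15, 1.04 and 0.905 CPM at E15.5, 2.22, 1.55 and 0.769 CPM at E18.5, then 17.9, 19.2 and 18.1 CPM at P5, and 14.4, 14.9 and 16 CPM at P8. At E18.5 replicate 3 was under all E15.5 libraries, whereas every P5 library was over every other one. From E18.5 to P5 it rose 12.92-fold (log2 fold change 3.69, SE 0.27, edgeR FDR = 1.3e-07). Before birth its log2 fold change was 0.55 (edgeR FDR = 0.18), and 0.88 (edgeR FDR = 0.0049) without E18.5 replicate 3. From P5 to P8 it was -0.3 (edgeR FDR = 0.4, and 0.035 when only the 6 P5 and P8 libraries were fitted). The gene, on chromosome 7 from 126672865 to 126676432, overlaps *Sgf29* on the other strand (median 11.1 CPM).

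**Figure D4:**
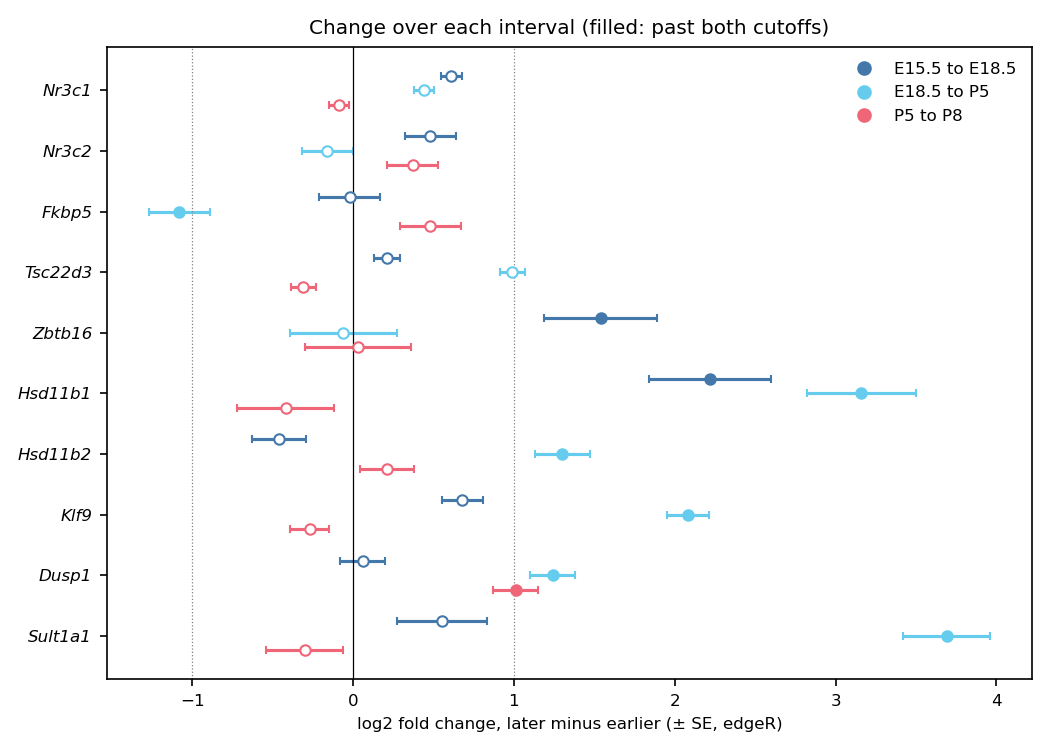
Log2 fold change of each of the 10 genes over the 3 successive intervals, later minus earlier, with the SE of the edgeR fit as whiskers, filled where the gene passed both cutoffs, and dotted lines at -1 and 1. The interval across birth holds 6 of the 9 filled points, *Fkbp5* at -1.08 being the one on the left.

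The start-site windows of the responsive genes show which of them carry letters of known response elements. The RefSeq table for GRCm38.p6 held a window for 7 of the 10 genes. In the 250 bases before the start site, the full palindromic glucocorticoid response element, with a spacer of any 3 bases and searched on both strands, was in 0 of the 9 windows of these genes and in 3 of 32851 windows of all genes (0.00913%). At so low a rate, its absence from 9 windows cannot set these genes apart from others. Inexact matches and bases outside the windows were not searched. Its single arm AGAACA, on either strand, was in 1 of 3 windows of *Tsc22d3* and in the window of *Sult1a1*, where it occurred at 2 places, and in 16.1% of all windows. The cyclic AMP response element TGACGTCA was in the window of *Dusp1* and in 1.55% of all windows. TGACG, which that element contains, was in the windows of *Dusp1* and *Klf9* and in 17.8% of all. It was also in 1 of 3 windows of *Tsc22d3*, not the one with AGAACA. These matches are descriptions of the letters in these windows and not binding sites. The windows of the 3 genes with the arm or the full cyclic AMP element are shown 5′ to 3′ on the gene's strand, all on the minus strand, with matches to AGAACA and TGACG and their reverse complements in capitals where they were found, at chrX:140600523-140600772, chr7:126676419-126676668 and chr17:26508473-26508722 in turn.
Tsc22d3: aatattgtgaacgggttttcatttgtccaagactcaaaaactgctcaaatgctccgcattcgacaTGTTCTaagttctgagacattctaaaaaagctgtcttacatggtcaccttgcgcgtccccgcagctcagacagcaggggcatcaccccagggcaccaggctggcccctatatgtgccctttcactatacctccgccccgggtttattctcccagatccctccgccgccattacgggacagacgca
Sult1a1: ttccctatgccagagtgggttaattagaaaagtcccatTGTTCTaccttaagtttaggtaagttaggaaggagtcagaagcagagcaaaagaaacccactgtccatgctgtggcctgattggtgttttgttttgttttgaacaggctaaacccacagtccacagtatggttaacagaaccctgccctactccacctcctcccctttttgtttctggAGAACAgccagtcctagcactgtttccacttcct
Dusp1: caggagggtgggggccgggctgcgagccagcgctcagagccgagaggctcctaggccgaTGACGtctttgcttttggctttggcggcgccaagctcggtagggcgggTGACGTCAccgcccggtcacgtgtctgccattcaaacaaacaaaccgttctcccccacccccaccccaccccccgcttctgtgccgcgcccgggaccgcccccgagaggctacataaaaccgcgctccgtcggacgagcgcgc

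Genes whose pattern over the 12 libraries was most like that of each of the 10, by Pearson correlation of log2 CPM, are given as a description. The 12 libraries share 4 time-points and the step at birth, so high values are common. For *Nr3c1* these were *Map3k3*, *Mal2* and *Atp8a1* (r = 0.99, 0.988 and 0.987), and for *Nr3c2* they were *Pik3c2b*, *Has1* and *Cnksr1* (r = 0.883, 0.882 and 0.877). *Hsd11b1* was nearest to *Nmur1*, *Mapt* and *Arhgap44* (r = 0.997, 0.996 and 0.996), and *Hsd11b2* to *Klc1*, *Khk* and *Cd180* (r = 0.977, 0.977 and 0.969). *Fkbp5* went with *Prkaca*, *Xrcc6* and *Tube1* (r = 0.982, 0.981 and 0.975), *Tsc22d3* with *Ppm1a*, *Clec14a* and *Ap1s2* (r = 0.997, 0.996 and 0.995) and *Zbtb16* with *Snx30*, *C1galt1* and *Ass1* (r = 0.924, 0.915 and 0.914). *Klf9* had *Ptprb*, *Gpihbp1* and *Pdzd2* (r = 0.997, 0.996 and 0.996), *Dusp1* had *Ccn1*, *Mapk15* and *Igfbp6* (r = 0.994, 0.991 and 0.991) and *Sult1a1* had *Sat1*, *Gm29237* and *Nbl1* (r = 0.996, 0.995 and 0.995). Among the 10 themselves, *Klf9* and *Sult1a1* were the most alike (r = 0.984), and *Fkbp5* and *Tsc22d3* the most opposed (r = -0.911).

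Most genes in a list of chaperones and other proteins that act on the receptor fell across birth while *Nr3c1* rose. Of these 12 genes, 10 fell between E18.5 and P5 and 0 rose, where 35.7% of all genes fell and 35.4% rose. Past both cutoffs 5 of them fell, against 9.34% of all genes, and the median log2 fold change of the list was -0.72. *Fkbp4*, another co-chaperone of the complex, went from 389 ± 27.1 to 163 ± 3.57 CPM (log2 fold change -1.16, edgeR FDR = 9.3e-09). *Stip1*, which passes clients to HSP90, had a log2 fold change of -1.23 (edgeR FDR = 1.4e-08), and *Hsp90aa1*, the inducible HSP90, of -1.1 (edgeR FDR = 2e-08). In the same interval 1 of 12 coregulators rose and 6 fell (all genes: 35.4% and 35.7%), with the arginine methyltransferase *Carm1* past both cutoffs (log2 fold change -1.1, edgeR FDR = 6e-08). The chaperone list also changed outside that interval. From E15.5 to E18.5, 8 of its 12 genes fell and 0 rose (all genes: 9.87% and 11.6%). From P5 to P8, 6 rose and 0 fell (all genes: 9.75% and 8.21%).

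Other glucocorticoid-induced genes moved in both directions. Of 34 tested, 20 rose and 4 fell across birth, where 35.4% of all genes rose and 35.7% fell (median log2 fold change of the 34: 0.73). Past both cutoffs 12 of the 34 rose and 3 fell (all genes: 17.5% and 9.34%). *Lcn2*, an iron-carrier binding protein of the innate defence, rose from 0.557 ± 0.0896 to 72.2 ± 20.8 CPM (log2 fold change 7.1, edgeR FDR = 3.2e-09). *Scnn1a*, the alpha subunit of the epithelial sodium channel, rose in both of the first intervals, by a log2 fold change of 1.24 (edgeR FDR = 0.0044) and then 3.74 (edgeR FDR = 3.1e-08), and *Angptl4*, an inhibitor of lipoprotein lipase, rose across birth by 1.5 (edgeR FDR = 6.6e-08). *Hif3a*, a hypoxia-inducible factor subunit, fell with *Fkbp5*, from 170 ± 30 to 8.91 ± 0.855 CPM (log2 fold change -4.17, edgeR FDR = 1.2e-09). The cell cycle inhibitor *Cdkn1c* fell by 1.86 on the log2 scale (edgeR FDR = 1.3e-09) and the mTORC1 inhibitor *Ddit4* by 1.68 (edgeR FDR = 3.6e-05). Before birth 11 of the 34 rose and 1 fell (all genes: 11.6% and 9.87%). From P5 to P8, 3 rose and 5 fell (all genes: 9.75% and 8.21%), among the latter the clock gene *Per1*, which went from 82.1 ± 10.3 to 28.5 ± 2.65 CPM (log2 fold change -1.55, edgeR FDR = 0.00094). Of those that rose, *Acsl1* was at 113, 187 and 47.6 CPM in P8 replicates 1, 2 and 3 and overlapped P5. *Bcl6* was at 19, 26.8 and 17.4 CPM in the same order. P8 replicates 1 and 2 carried thymus and adipose transcripts, whose part in these rises was not tested.

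Genes that glucocorticoids are known to repress were called in both directions too. Of 10 tested, 6 rose and 4 fell across birth, against 35.4% and 35.7% of all genes (median log2 fold change 1.6), with the adhesion molecule *Icam1* up from 38.4 ± 4.12 to 138 ± 8.23 CPM (log2 fold change 1.93, edgeR FDR = 4.2e-09) and the chemokine *Ccl2* down from 4.68 ± 0.338 to 0.769 ± 0.367 CPM (log2 fold change -2.5, edgeR FDR = 3.4e-05). The 8 macrophage markers summed to 70.3 to 86.6 CPM before birth and 183 to 375 CPM after it, and their part in the values of these inflammatory genes was not tested.

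Among sodium transport genes of the mineralocorticoid pathway no fall was called. Of 8 tested, 6 rose across birth, 5 of them past both cutoffs, and 0 fell, where 35.4% of all genes rose, 17.5% past both cutoffs (median log2 fold change 2.06). The sodium channel subunits *Scnn1b* and *Scnn1g* rose by log2 fold changes of 3.05 (edgeR FDR = 4.2e-10) and 3.26 (edgeR FDR = 1.5e-08). The alveolar type 1 and type 2 markers rose in the same interval in all 6 and all 8 cases, and their part in these values was not tested.

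Of the genes for steroid synthesis, metabolism and transport, 7 of 16 could be tested, and 3 rose and 2 fell across birth, close to the 35.4% and 35.7% of all genes. *Crh*, the hypothalamic releasing hormone that starts the stress axis, was detected in the embryonic lungs, at 7.57, 8.77 and 6.77 CPM at E15.5 and 18.1, 17.1 and 14 CPM at E18.5, and at 0.0321 to 0.227 CPM after birth. It rose from E15.5 to E18.5 (log2 fold change 1.1, SE 0.27, edgeR FDR = 0.014). The steroid exporter *Abcb1a* rose across birth (log2 fold change 1.9, edgeR FDR = 3.2e-08) and the reductase *Srd5a1* fell (log2 fold change -1.12, edgeR FDR = 1.2e-06). *H6pd*, which supplies the cofactor that the *Hsd11b1* product uses, went from 97.4 ± 3.78 CPM at E15.5 to 213 ± 15.6 CPM at P8 (log2 fold change 1.21, edgeR FDR = 1.4e-07). The 6 adrenal cortex markers summed to 2.11 to 6.36 CPM in every library, most of it *Star*. Among them *Cyp11a1* rose across birth, from 0.529 ± 0.316 to 1.73 ± 0.387 CPM (log2 fold change 1.79, edgeR FDR = 0.005).

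Further lists of related genes were read for comparison with *Dusp1* and *Klf9*, beside the 35.4% of all genes that rose and the 35.7% that fell across birth. Whether they share regulation with these 2 genes was not tested. In that interval 8 of 11 other dual specificity phosphatases rose and 2 fell (median log2 fold change 0.96), with *Dusp3* the clearest rise (log2 fold change 2.42, edgeR FDR = 3.7e-10) and *Dusp9* the clearest fall (log2 fold change -2.64, edgeR FDR = 4.2e-08). Of 14 immediate early genes, 9 rose and 3 fell (median 0.45), *Fos* and *Junb* rising by 1.31 (edgeR FDR = 1.1e-05) and 1.36 (edgeR FDR = 1.5e-05) and *Myc* falling by 1.45 on the log2 scale (edgeR FDR = 4e-05). From P5 to P8, when *Dusp1* rose again, 5 of these 14 rose and 1 fell (all genes: 9.75% and 8.21%), and *Egr1* passed both cutoffs, from 10.1 ± 1.67 to 33 ± 4.67 CPM (log2 fold change 1.69, edgeR FDR = 0.0012). Of 14 circadian clock genes 11 rose across birth and 0 fell (median 0.87), *Nr1d2* by a log2 fold change of 1.97 (edgeR FDR = 2e-08). Of 6 tested genes of the thyroid hormone response 3 rose and 1 fell (median 0.36), with the receptor *Thrb* up by 1.83 (edgeR FDR = 1.7e-05) and the corepressor *Hr* down (log2 fold change -1.3, edgeR FDR = 7.8e-07). Another that rose, *Thrsp*, was uneven at P5, with 0.61, 0.908 and 6.1 CPM in replicate order. Replicate 3 was also the P5 library with the most adipose transcripts, whose part in this value was not tested. The other steroid receptors reported here were at low levels. The progesterone receptor *Pgr* fell across birth from 1.65 ± 0.368 to 0.436 ± 0.177 CPM (log2 fold change -1.82, edgeR FDR = 0.00024). The estrogen receptor *Esr2* rose from 0.441 ± 0.139 to 1.26 ± 0.203 CPM (log2 fold change 1.6, edgeR FDR = 0.019). From E15.5 to P8 *Esr2* missed the test (log2 fold change 0.52, edgeR FDR = 0.39).

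**Figure D5:**
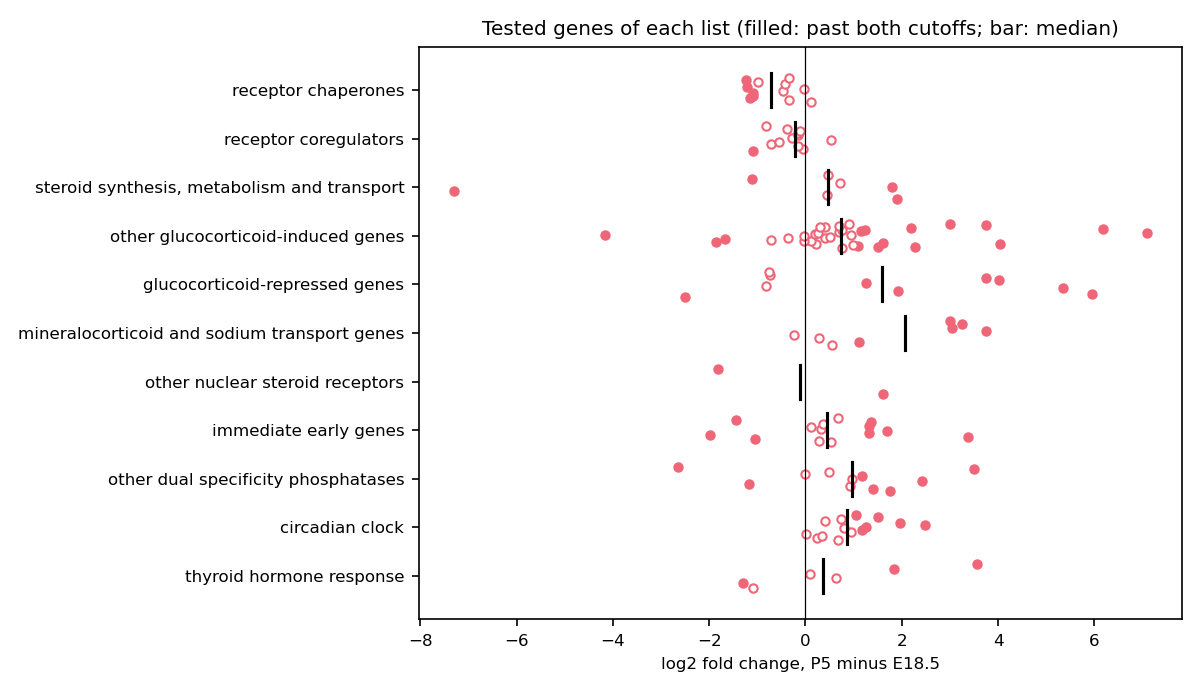
Change across birth, on the log2 scale and as P5 minus E18.5, of every tested gene in each of 11 lists of related genes, 1 point per gene, filled where past both cutoffs, with the list's median as a bar. The chaperone list has the lowest median, -0.72, with its highest gene at 0.12, the sodium transport list lies furthest right with a median of 2.06, and the lists of induced and repressed genes spread to both sides.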

How the data were processed

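Libraries of whole lung were sequenced by the authors as paired 101-nt reads. Per the study's methods, reads were mapped to mm10 with TopHat2 2.1.1 and Bowtie2 2.3.4 against Gencode annotation and counted per gene with HTSeq 0.10.0, and weakly expressed genes were removed by the authors from the deposited counts. The authors also deposited CPM values, scaled by all mapped reads of a sample. Whether counting used strand is not given in the sources used here. A deposited table of splicing events was not used.

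From the counts, genes that reached 1 CPM in 3 or more libraries were fitted over all 12 libraries with edgeR 4.0.16 (TMM, quasi-likelihood test, Benjamini-Hochberg adjustment), and the SE is the log2 fold change divided by the root of the F statistic. Levels are deposited CPM. Log2 ratios used counts plus 0.5 and an exact permutation test in scipy 1.17.1. Replicates differed beyond sampling noise, with a mean chi-square per gene of 12.93 or more. The fit was tested on simulated data. A first floor on the share of changed genes called was missed and was lowered before the misses were examined. It was then replaced by a criterion on bias, sign and false calls, so the criterion was revised after its first run. Depth was 41337443 to 53901957 counted reads per library. Members and lists were chosen with earlier results of these data known, and the genes named from a list are up to 3 per direction and comparison with the lowest FDR past both cutoffs. Alternatives were other scaling, DESeq2 1.42.0, no filter, fits of 6 libraries, a replicate block and leaving out libraries. A gene of the steroid receptor list is not reported here.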

Additional observations from a re-analysis of the deposited data

How the results depend on the processing

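Of 800 recomputed log2 fold changes of the 10 genes, 770 kept their direction and stayed past both cutoffs together or short of that. Some of these 770 still crossed an FDR of 0.05 taken alone. With FDR under 0.05 as the only cutoff, 5, 8, 2 and 10 of the 10 genes were called from E15.5 to E18.5, E18.5 to P5, P5 to P8 and E15.5 to P8, and 3441, 11369, 2872 and 12197 of all genes. The first interval called 291 genes when fitted on its own 6 libraries. Without both E15.5 libraries with heart transcripts it called 179 genes and 0 of the 10. Without the 3 libraries with thymus transcripts, P5 to P8 called 90 genes. Leaving out each library in turn gave 284 to 572 genes for E15.5 to E18.5 and 198 to 682 for P5 to P8, with 0 to 1 of the 10 in the latter. *Nr3c2* from E15.5 to E18.5 missed an FDR of 0.05 in 13 of 20 settings (FDR 0.05016 to 0.2243), and *Fkbp5* from E15.5 to P8 missed it without both heart libraries (-0.5356, FDR 0.09932). The reversals were all in changes that missed an FDR of 0.05 with all libraries in edgeR. *Fkbp5* from P5 to P8 passed it under DESeq2 (0.4893, FDR 0.0294) and without P8 replicate 3 (0.7089, FDR 0.0005975), and the fits of 6 libraries called *Hsd11b1*, *Klf9* and *Sult1a1* lower from P5 to P8 (FDR 0.04421, 0.03752 and 0.03495). *Fkbp5* from E15.5 to E18.5 was at -0.0705 to 0.0599 with 1 library left out, at 0.0604 without the thymus libraries and at 0.0603 without the heart libraries, and from P5 to P8 at -0.1744 without the thymus libraries, where *Nr3c1* was at 0.0423. With 1 library left out, *Dusp1* from E15.5 to E18.5 was at -0.0781 to 0.2178, and *Zbtb16* was at -0.3484 to 0.4602 from E18.5 to P5 and at -0.053 to 0.1424 from P5 to P8. With the replicate number as a block, *Zbtb16* from E18.5 to P5 was at 0.0137. The replicate numbers do not pair the samples: 4 of 18 same-numbered pairs had correlated deviations above 0.1 (range -0.288 to 0.265), and the block left the number of the 10 past both cutoffs at 2, 6, 1 and 6 in the 4 comparisons. Both count ratios kept direction and call in all 28 recomputations. The causes were not tested. The lowest value of the 10 genes rests on 42 reads in a library.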
